A study of Homo sapiens with 31 samples.

Results

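The 10 genes described here encode the focal adhesion kinase FAK (gene PTK2) and 9 proteins that work with it where a cell grips its matrix: PTK2B, SRC, PXN, BCAR1, TLN1, VCL, ILK, PIK3CA and ROCK2. They were chosen by name and not by their measured values, though earlier results of these data were known. Each was found by its symbol: 10 of 57992 genes in the steady-state tables and 10 of 43682 genes in the actinomycin D tables. All 10 passed the filter on low counts in both sets.

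All libraries are labelled as PANC-1, a long-established cell line from a human pancreatic cancer. The steady-state RNA-seq set held 3 libraries labelled as KHSRP knockout (KO) and 3 labelled NC with a wild-type genotype, and its labels name no treatment. The actinomycin D set held 20 libraries, 2 of each genotype label at each of the labelled times 0, 2, 4, 6 and 8 h in actinomycin D, a drug that blocks transcription. KHSRP is an RNA-binding protein known for promoting the decay of messenger RNAs with AU-rich elements, and the study asked what its loss does to gene expression and to the lifetime of messenger RNA. The labels do not say how the knockout was made, whether the KO cells are a single clone, or what the NC cells carried. Nothing in them ties replicates to separate cultures: the p-values rest on the spread among these libraries alone, and that spread may be technical.

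Integrins bind the matrix outside the cell and, through talin (TLN1) and vinculin (VCL), the actin cytoskeleton inside it. Their clustering brings FAK to the membrane, where FAK phosphorylates itself and docks the kinase SRC. The pair then phosphorylates the scaffolds paxillin (PXN) and p130Cas (BCAR1), and signals pass on to phosphoinositide 3-kinase (PIK3CA encodes a catalytic subunit), to the scaffold ILK and to kinases such as ROCK2, which drive myosin contraction. PTK2B encodes PYK2, the close relative of FAK. Pancreatic ductal cancers are known for a dense matrix and active FAK signalling.

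The promoters of 4 members are shown because these genes moved most clearly in the steady state: PIK3CA and ROCK2 were lower in KO, and TLN1 and ILK were higher. Each line gives the 250 bases before an annotated start from RefSeq (GRCh38.p14), read 5′ to 3′ on the gene's strand, with every GC box (GGGCGG, or CCGCCC on the other strand) in capitals. The PIK3CA window is chr3:179148107-179148356 (plus strand), the ROCK2 window chr2:11344637-11344886 (minus strand, 1 of 2 annotated starts), the TLN1 window chr9:35732196-35732445 (minus strand) and the ILK window chr11:6603524-6603773 (plus strand).
PIK3CA: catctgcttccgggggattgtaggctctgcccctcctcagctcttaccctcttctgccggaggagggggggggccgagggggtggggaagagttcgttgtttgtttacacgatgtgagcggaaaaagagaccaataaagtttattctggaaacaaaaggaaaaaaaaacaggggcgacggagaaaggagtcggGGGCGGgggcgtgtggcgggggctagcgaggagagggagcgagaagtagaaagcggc
ROCK2: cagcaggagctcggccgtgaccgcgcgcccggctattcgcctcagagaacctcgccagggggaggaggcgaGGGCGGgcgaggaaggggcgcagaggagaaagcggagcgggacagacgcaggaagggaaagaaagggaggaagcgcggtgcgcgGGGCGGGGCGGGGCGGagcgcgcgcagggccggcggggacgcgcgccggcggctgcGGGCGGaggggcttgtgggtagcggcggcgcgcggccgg
TLN1: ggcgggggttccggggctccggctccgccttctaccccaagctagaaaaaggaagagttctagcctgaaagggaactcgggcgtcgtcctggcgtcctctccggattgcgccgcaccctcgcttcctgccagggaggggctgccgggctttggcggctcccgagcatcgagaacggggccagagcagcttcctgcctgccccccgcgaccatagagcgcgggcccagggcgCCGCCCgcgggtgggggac
ILK: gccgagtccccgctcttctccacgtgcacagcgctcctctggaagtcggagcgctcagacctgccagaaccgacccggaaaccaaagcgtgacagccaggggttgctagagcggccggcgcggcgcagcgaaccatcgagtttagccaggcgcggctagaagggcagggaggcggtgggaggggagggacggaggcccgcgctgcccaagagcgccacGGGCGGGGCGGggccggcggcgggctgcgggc
The ROCK2 window held 5 GC boxes, some of them overlapping, the ILK window 2, and the PIK3CA and TLN1 windows 1 each. The table held 13 such windows for 7 of the members and none for PTK2, PTK2B and SRC. A GC box was present in 10 of the 13 and in 42.6% of all 35116 windows of that length. A CCAAT box (CCAAT or ATTGG) was present in 3 of the 13 and in 32.0% of all windows, and an ETS core (CCGGAA or TTCCGG) in 3 and in 14.5%. A TATA box (TATAAA or TTTATA) lay in 1 of the 13 and in 10.7% of all windows, and an E box (CACGTG) in 1 and in 6.34%. GC content was 57.6% for PIK3CA, 77.6% for ROCK2, 70.8% for TLN1 and 72.8% for ILK, against a median of 58% over all windows. The window at the other ROCK2 start, with 44.8% GC, held 0 GC boxes and a TATA box.

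Steady-state libraries held 33706181 to 43278138 counts and actinomycin D libraries 19177934 to 25768060. Levels are CPM, the counts of a gene relative to the TMM-scaled total of its library, unless a sentence names another scale, and the 2 sets were made and scaled separately. KHSRP, the targeted gene, stood at 10.6, 9.89 and 9.49 CPM in the steady-state KO libraries and at 64.4, 65.7 and 64.9 CPM in NC, a log2 change of -2.70 (SE 0.08, edgeR adjusted p = 4.52e-07). In the actinomycin D set it ranged from 134 to 156 CPM in the 10 libraries labelled KO and from 375 to 460 CPM in the 10 labelled NC. In plain CPM, without TMM scaling, the libraries labelled KO of that set held 134 to 164, above the 62.5 to 63.6 of the steady-state NC libraries. Steady-state KO replicate 1 stood apart from its group: chi-square per degree of freedom over genes was 42.8 and 26.6 against replicates 2 and 3, and 11.3 between those.

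The libraries of the actinomycin D set also differed by label in genes that mark the cell line. CDKN2A, which PANC-1 is known to have lost, had 0 counts in all 10 libraries labelled KO and 125 to 247 CPM in the 10 labelled NC. In the steady state it had 6 counts in each KO library and 0 in each NC library. MTAP, its neighbour and the other gene listed as lost in PANC-1, was at 15.9 to 39.7 CPM under the KO label and at 42.3 to 59.1 CPM under the NC label, against 1.96 to 3.09 CPM in the steady state. Under both labels of the actinomycin D set MTAP was thus above all steady-state libraries. KRT19, a ductal keratin, was at 372 to 415 CPM under the KO label and at 0 to 0.672 CPM under the NC label, while all 6 steady-state libraries held 301 to 354 CPM. KRT7, another keratin, was at 8.61 to 19.1 CPM under the KO label, at 541 to 961 CPM under the NC label and at 3.43 to 5.39 CPM in the steady state. Of the 6 genes that PANC-1 is known to express, 6 had a mean of at least 1 CPM in the steady-state KO and NC groups and under the KO label, and 4 under the NC label, where KRT19 and EPCAM fell short. Of 5 immune markers only CD68 reached 1 CPM, at 111 to 247 CPM under the KO label and 9.95 to 13.8 CPM under the NC label. In the steady state the 5 summed to 89.8 to 114 CPM in KO and to 60.6 to 63.2 CPM in NC. Of 6 fibroblast markers 2 reached it under the KO label and 3 under the NC label, of 4 endothelial markers 1 under each, and of 4 acinar and 3 endocrine markers 0. These differences ran along the genotype label, so in the actinomycin D set the effect of the genotype and that of the cells labelled NC cannot be told apart.

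In the steady state the members did not move together. PIK3CA fell from 87.6 ± 6.18 CPM in NC to 29.7 ± 5.52 CPM in KO and ROCK2 from 70.8 ± 5.93 to 26.5 ± 5.99 CPM (SD, n = 3 each). TLN1, BCAR1 and ILK rose by 0.45 to 0.53 on the log2 scale, SRC rose by 0.23, and the transcript of FAK itself did not pass the test. In all, 4 of the 10 members passed an edgeR adjusted p of 0.05 as higher in KO and 2 as lower. Of all 17240 genes tested 50.6% were called, 24.4% as higher and 26.3% as lower, so the members' count of 6 in 10 was near the background. Of the genes called 48.1% were higher, and on log2(TPM + 1) 77.2% were (limma). In bulk RNA a lower level of a gene from fewer cells that express it and from less of its RNA per cell cannot be told apart. The median log2 change of the members was 0.07, beside 0.02 for all genes tested.

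Of the kinases at the centre of the adhesion, SRC passed the test and the 2 FAK family kinases did not. PTK2 (ENSG00000169398.19, hg19 chromosome 8, 141667999 to 142012178, minus strand) stood at 125, 103 and 108 CPM in KO and at 117, 115 and 112 CPM in NC. The 2 groups overlapped, and the log2 change of -0.03 (SE 0.09, edgeR adjusted p = 0.766) was smaller in size than that of all but 4.26% of genes tested. In deposited TPM values, which divide reads by transcript length, the groups of PTK2 did not overlap. There KO was at 17.0 to 22.6 TPM and NC at 15.1 to 16.7 TPM, so this result depended on the scale. PTK2B, a rare transcript here, was at 0.947, 1.71 and 1.36 CPM in KO and at 1.61, 1.60 and 1.91 CPM in NC. Its groups overlapped too (log2 change -0.34, SE 0.23, edgeR adjusted p = 0.242). SRC (ENSG00000197122.11, hg19 chromosome 20, 35973102 to 36034453, plus strand) was at 24.6, 25.3 and 25.6 CPM in KO and at 22.3, 22.5 and 19.4 CPM in NC. Every KO library lay above every NC library, by little (log2 change 0.23, SE 0.09, edgeR adjusted p = 0.0458). The call of SRC did not hold with DESeq2 (adjusted p = 0.0632), on log2(TPM + 1) (limma, 0.0592) or with the replicate number as a block (edgeR, 0.0643).

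Of the scaffolds that FAK and SRC phosphorylate, BCAR1 rose and PXN did not pass. BCAR1 (ENSG00000050820.16, hg19 chromosome 16, 75262079 to 75301905, minus strand) was at 49.4, 58.5 and 60.4 CPM in KO and at 38.9, 41.9 and 36.5 CPM in NC. The groups were apart, with a log2 change of 0.52 (SE 0.10, edgeR adjusted p = 0.00181). PXN was at 88.9, 101 and 88.5 CPM in KO and at 82.9, 76.2 and 87.9 CPM in NC. Its KO libraries also lay above its NC libraries, but 2 of them only just, and the change did not pass (0.17, SE 0.09, edgeR adjusted p = 0.129). On log2(TPM + 1) PXN did pass, at 0.48 (limma adjusted p = 0.00611).

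Of the proteins that tie integrins to actin, talin rose and vinculin did not pass. TLN1 (ENSG00000137076.19, hg19 chromosome 9, 35696945 to 35732192, minus strand) was at 520, 552 and 584 CPM in KO and at 387, 390 and 373 CPM in NC, a log2 change of 0.53 (SE 0.07, edgeR adjusted p = 0.000244). VCL was at 677, 563 and 594 CPM in KO and at 644, 656 and 626 CPM in NC, with overlapping groups (log2 change -0.07, SE 0.08, edgeR adjusted p = 0.477). The sign of VCL depended on the scale: with the trend on transcript length removed it was 0.38 (edgeR adjusted p = 0.000939). ILK (ENSG00000166333.13, hg19 chromosome 11, 6625004 to 6632101, plus strand), the hub of the ILK-PINCH-parvin complex, was at 357, 371 and 381 CPM in KO and at 260, 291 and 260 CPM in NC. Its groups were apart, with a log2 change of 0.45 (SE 0.07, edgeR adjusted p = 0.000822).

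The 2 kinases downstream fell. PIK3CA (ENSG00000121879.3, hg19 chromosome 3, 178866145 to 178957881, plus strand) was at 35.6, 24.6 and 28.9 CPM in KO and at 90.4, 80.5 and 91.9 CPM in NC. All KO libraries lay far below all NC libraries (log2 change -1.56, SE 0.13, edgeR adjusted p = 3.27e-05), and 96.6% of genes tested changed by less in size. ROCK2 (ENSG00000134318.13, hg19 chromosome 2, 11319885 to 11485563, minus strand) was at 31.6, 19.9 and 27.9 CPM in KO and at 72.4, 64.2 and 75.7 CPM in NC. Its log2 change was -1.42 (SE 0.15, edgeR adjusted p = 9.50e-05), larger in size than that of 95.2% of genes tested. Parts of PIK3CA have a near-identical pseudogene copy, so some of its reads could have been split, which was not tested.

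Transcript length moved with these changes. Effective length is the part of a transcript on which a read can start. Of the 4309 genes with an effective length of at least 3077 bases, 2019 were lower and 748 were higher in KO, with a median log2 change of -0.31. PIK3CA and ROCK2 belong to these genes, and so do SRC, TLN1 and VCL. With the length trend removed in each library, PIK3CA was at -1.13 and ROCK2 at -0.92, and both still passed (edgeR adjusted p = 4.84e-06 and 5.25e-05), while TLN1 went up to 0.91.

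Leaving out the KO library that stood apart, replicate 1, raised the number of members called from 6 to 8. The number of all genes called rose too, from 8726 of 17240 tested to 10150 of 17757. Without replicate 1 PIK3CA was at -1.69, ROCK2 at -1.55, BCAR1 at 0.62, TLN1 at 0.58, ILK at 0.49 and SRC at 0.27. PXN then passed at 0.22 and VCL at -0.13 (edgeR adjusted p = 0.0367 and 0.0399), and PTK2 (-0.10, adjusted p = 0.161) and PTK2B (-0.13, adjusted p = 0.623) still did not.

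**Figure D1:**
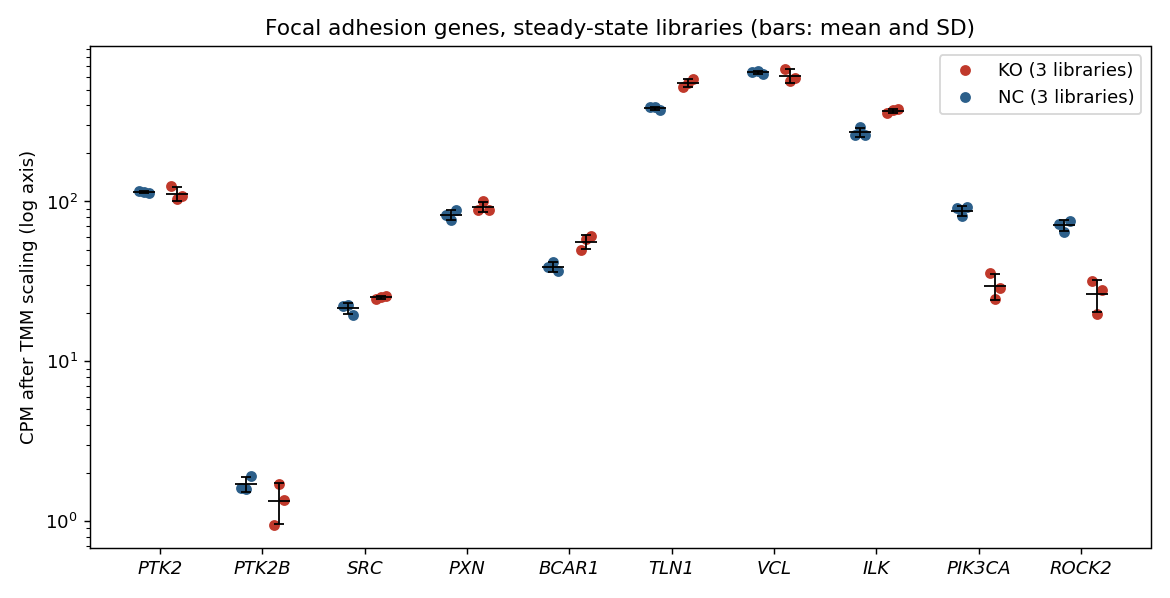
Level of each gene in the 6 steady-state libraries, in CPM after TMM scaling on a log axis, with points for libraries and bars for the mean and SD of 3. PIK3CA and ROCK2 lie lower in every KO library than in every NC library, while the KO and NC points of PTK2 and VCL overlap.

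Per length of transcript, in deposited TPM values, which divide reads by transcript length, the members spanned from ILK at 60.7 ± 5.37 TPM to PTK2B at 0.233 ± 0.0208 TPM in NC (SD, n = 3). Between them came VCL at 37.1 ± 2.28, TLN1 at 25.8 ± 1.37, PTK2 at 15.7 ± 0.851 and PXN at 10.4 ± 0.866 TPM, each pair of neighbours without overlap. PIK3CA (4.72 ± 0.347 TPM) and BCAR1 (4.71 ± 0.386 TPM) overlapped, and ROCK2 (3.30 ± 0.281 TPM) lay above SRC (2.39 ± 0.359 TPM). In KO the order ran ILK, TLN1, VCL, PTK2, PXN, BCAR1, SRC, PIK3CA, ROCK2 and PTK2B. There TLN1 (45.3 ± 3.52 TPM) overlapped VCL (41.1 ± 7.61 TPM), and PIK3CA (2.41 ± 0.881 TPM) overlapped both SRC (3.15 ± 0.333 TPM) and ROCK2 (1.67 ± 0.380 TPM). PIK3CA thus fell from the level of BCAR1 to below it.

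The members' close relatives showed both directions as well. Among the paralogs of the 2 members that fell, ROCK1, which also drives myosin contraction, fell by 0.82 on the log2 scale (SE 0.13, edgeR adjusted p = 0.000880; 48.4 ± 10.4 against 85.5 ± 1.97 CPM, SD, n = 3 each), and PIK3CB, a sister catalytic subunit, fell by 1.27 (SE 0.11; 43.3 ± 6.10 against 104.6 ± 6.32 CPM). PIK3CD, the subunit best known from leukocytes, rose by 0.58 (SE 0.10) from a low level, 6.96 ± 0.600 CPM. Of the SRC family kinases, YES1 fell (log2 change -0.68, SE 0.15) and FYN rose (0.95, SE 0.15; 4.81 ± 0.777 against 2.49 ± 0.0782 CPM). TGFB1I1, a paxillin relative known as HIC-5, rose (0.55, SE 0.11). TLN2 (0.21, SE 0.12), LPXN (-0.41, SE 0.19) and the BCAR1 relative NEDD9 (-0.40, SE 0.20) did not pass, and EFS and CASS4 were too low to be tested. ROCK1 has a partial pseudogene copy, with which reads could be shared.

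Genes around the members were described in 6 lists without the members. Their log2 changes are given without removal of the trend on transcript length. Of all genes tested in the steady state 24.4% were called as higher and 26.3% as lower in KO, with a median log2 change of 0.02. Among integrin receptors 5 of 11 tested were lower and 3 were higher in KO, with a median log2 change of -0.77. ITGB1, the common beta subunit, fell by 1.56 (SE 0.15), ITGAV by 1.13 (SE 0.14) and ITGA2 by 0.87 (SE 0.14), while ITGB4, the hemidesmosome subunit, rose by 0.72 (SE 0.13), ITGA3 by 0.42 (SE 0.09) and ITGA5 by 0.35 (SE 0.08). Among 30 adaptors and kinases at FAK and SRC 9 were higher and 11 were lower (median -0.07). The paxillin-binding GIT1 rose (0.67, SE 0.07), as did the exchange factor RAPGEF1 (0.53, SE 0.08) and the adaptor CRKL (0.46, SE 0.07), both downstream of BCAR1. The Ras exchange factor SOS1 (-1.27, SE 0.11), the Ras GTPase activator RASA1 (-1.27, SE 0.11) and the Arf GTPase activator ASAP1 (-1.19, SE 0.13) fell.

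Of the 22 actin-linking scaffold genes tested 8 rose and 4 fell (median 0.20). Filamin A (FLNA, 0.65, SE 0.09) and the alpha-actinins ACTN1 (0.39, SE 0.08) and ACTN4 (0.33, SE 0.08) rose, while LPP (-1.65, SE 0.12) and ENAH (-0.38, SE 0.14) fell. In the ILK-PINCH-parvin list PARVB (0.36, SE 0.09) and RSU1 (0.36, SE 0.08) rose and LIMS1, which encodes PINCH, fell (-1.04, SE 0.10), with 2 of 5 not called and a median of -0.14. Of the 14 genes of the PI3K, AKT and ERK branch 5 rose and 5 fell (median -0.02). PIK3R2 (0.61, SE 0.12), MAPK3 (0.44, SE 0.08) and AKT2 (0.40, SE 0.06) rose, and PIK3CB was among those that fell. Of the 19 genes of the ROCK and myosin branch 7 rose and 6 fell (median 0.08). The myosin light chain kinase MYLK (0.56, SE 0.08), the light chain MYL9 (0.47, SE 0.10) and RHOC (0.43, SE 0.07) rose, and the myosin phosphatase subunit PPP1R12A (-1.06, SE 0.15), ROCK1 and DLC1 (-0.62, SE 0.08) fell.

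At the labelled 0 h of the actinomycin D set all 10 members differed between the labels, 8 higher and 2 lower under the KO label (edgeR adjusted p under 0.05). Of 17715 genes tested 67.1% were called there, 35.5% as higher and 31.6% as lower. TLN1 had the largest rise and ROCK2 the largest fall, and PIK3CA, which had fallen in the steady state, was higher. The members' median log2 change was 0.64, beside 0.06 for all genes. Of the genes called 52.9% were higher. With ribosomal protein genes as the reference this share was 71.5%, and with the deposited molecule values 81.7%, but no member changed direction with either. The marker genes named above differed along the same label.

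PTK2 stood at 152 and 153 CPM in the 2 libraries labelled KO and at 91.7 and 95.7 CPM in the 2 labelled NC at 0 h, so the groups were apart (log2 change 0.70, SE 0.06, edgeR adjusted p = 4.01e-14). SRC was at 14.3 and 12.1 CPM under the KO label and at 5.47 and 5.96 CPM under the NC label (1.21, SE 0.19). PTK2B was at 2.48 and 3.33 against 6.72 and 4.37 CPM, the reverse direction (-0.94, SE 0.33, edgeR adjusted p = 0.0110). That call rested on few reads, from 52 to 150 counts a library, and did not hold without KO replicate 1 (-0.74, adjusted p = 0.119), without NC replicate 1 (-0.59, adjusted p = 0.205) or on counts scaled to ribosomal protein genes (-0.49, adjusted p = 0.182).

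Both scaffolds were higher under the KO label at 0 h. PXN was at 569 and 553 against 255 and 277 CPM (log2 change 1.08, SE 0.04) and BCAR1 at 33.5 and 36.1 against 19.7 and 26.7 CPM (0.59, SE 0.11). TLN1 was at 746 and 741 against 256 and 254 CPM (1.55, SE 0.04, edgeR adjusted p = 1.00e-30), VCL at 868 and 879 against 748 and 753 CPM (0.22, SE 0.03) and ILK at 272 and 273 against 169 and 163 CPM (0.72, SE 0.05). In none of these did the libraries of the 2 labels overlap. The share of all genes without overlap at 0 h was not counted, so this only describes the members.

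PIK3CA was at 46.9 and 48.8 CPM under the KO label and at 37.7 and 32.2 CPM under the NC label (log2 change 0.45, SE 0.10, edgeR adjusted p = 0.000167). Each library labelled KO was thus above each labelled NC here and below each of them in the steady state, and the difference between the sets was not tested. ROCK2 was at 81.6 and 87.3 against 177 and 171 CPM (-1.04, SE 0.06), lower under the KO label in both sets. With the deposited molecule values, which shifted the median of all genes to 0.91, PIK3CA stood at 1.33 and ROCK2 at -0.25 (limma adjusted p = 4.59e-06 and 0.0313). On counts scaled to ribosomal protein genes, which shifted it to 0.50, they stood at 0.90 and -0.60, so the size of the fall of ROCK2 depended on the scale.

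**Figure D2:**
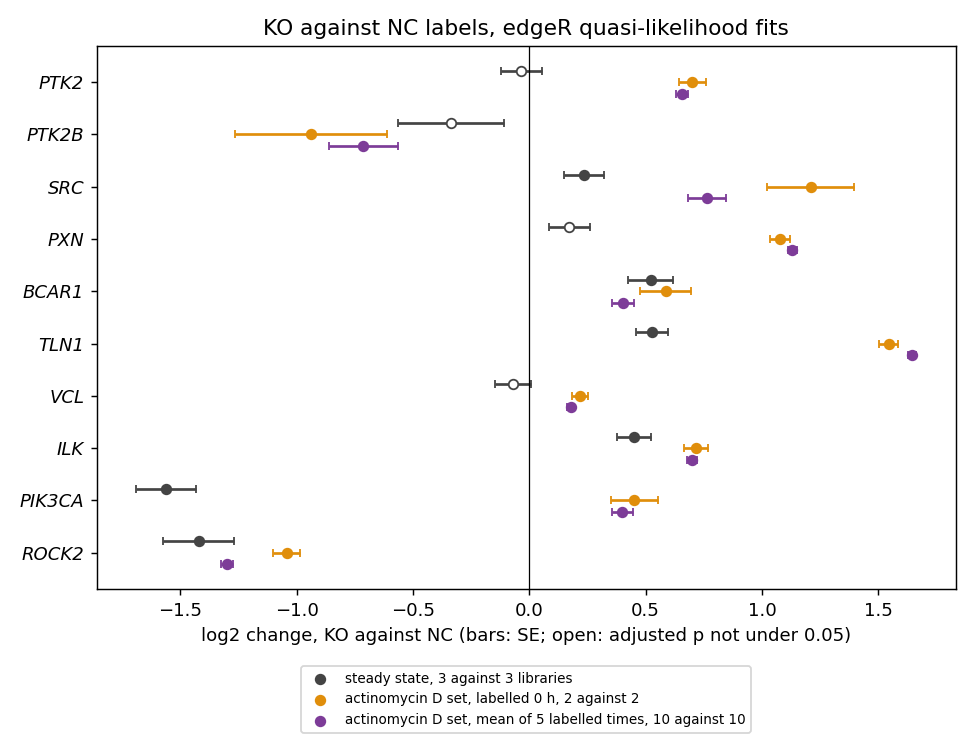
Log2 change of each gene between the KO and NC labels with its SE, in the steady state, at the labelled 0 h in actinomycin D and for the mean of the 5 labelled times. Open points did not pass an adjusted p of 0.05. PIK3CA lies at -1.56 in the steady state and at 0.45 at 0 h, while ROCK2 is below 0 in all 3 fits.

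Over all 5 labelled times the same directions held, for all 10 members. The mean over the times gave log2 changes of 1.65 for TLN1, 1.13 for PXN, 0.76 for SRC, 0.70 for ILK, 0.66 for PTK2, 0.40 for BCAR1, 0.40 for PIK3CA, 0.18 for VCL, -0.71 for PTK2B and -1.30 for ROCK2, all of them called, as were 83.1% of genes tested (41.6% higher and 41.6% lower). Taken library by library, 5 of the 10 members did not overlap between the labels, as did 38.2% of all genes (19.4% higher and 18.7% lower under the KO label). PTK2 ranged from 128 to 153 CPM (median 144) under the KO label and from 81.5 to 98.6 CPM (median 88.8) under the NC label. TLN1 ranged from 519 to 853 CPM against 165 to 265 CPM, PXN from 494 to 573 against 209 to 277 CPM and ILK from 192 to 282 against 115 to 177 CPM. ROCK2 lay wholly on the other side, from 59.2 to 100.3 CPM (median 84.5) against 160 to 279 CPM (median 201). In the steady state 60% of all genes did not overlap between KO and NC, and 7 of the members did not: the 6 that were called and PXN.

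For the other members the ranges over all times overlapped. Time by time, PIK3CA was higher in both libraries labelled KO at all 5 times, and PTK2B lower at all 5. SRC and VCL were higher at 4 times and lower at 1, and BCAR1 was higher at 2 times and lower at 1. The shares of all genes with such patterns were not counted, so these counts only describe the members.

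Within each label the levels of 9 of the 10 members differed between the labelled times, the exception being PTK2B (edgeR F test over the 5 times, adjusted p = 0.654 under the KO label and 0.378 under the NC label). Of all genes tested 55.9% differed under the KO label and 54.7% under the NC label, and 44.4% did so under both. With ribosomal protein genes as the reference all 10 members were called under both labels, as were 10740 and 10854 of 17715 genes. With the deposited molecule values (limma) all 10 were called too, beside 12545 and 12367 genes. Without the filter on low counts 7 members were called under KO and 8 under NC, beside 9585 and 10044 of 28648 genes. The ranges were mostly small. The ratio of the highest to the lowest time mean was 1.17 for PTK2 under the KO label and 1.16 under the NC label, against 1.76 and 1.71 for the median gene.

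BCAR1 had the widest range of the members. Under the KO label it stood at 33.5 and 36.1 CPM at 0 h, at 26.5 and 26.8 CPM at 2 h, at 85.1 and 75.9 CPM at 4 h, at 128 and 141 CPM at 6 h and at 20.9 and 16.7 CPM at 8 h. Under the NC label it stood at 19.7 and 26.7, 46.0 and 49.3, 81.1 and 78.3, 31.6 and 30.7, and 16.5 and 17.2 CPM at the same times. Both labels thus rose to a peak and ended below their start, with the peak at 6 h under KO and at 4 h under NC. The highest mean was 7.12 times the lowest under the KO label and 4.73 times under the NC label (edgeR adjusted p = 3.34e-26 and 1.85e-21), and the fitted range exceeded that of 91.2% and 85.2% of genes tested.

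SRC had its highest mean at the same times as BCAR1, while its lowest under the KO label was at 2 h. Under the KO label it was at 14.3 and 12.1 CPM at 0 h, 8.52 and 7.78 CPM at 2 h, 19.4 and 18.2 CPM at 4 h, 26.4 and 26.9 CPM at 6 h and 7.08 and 10.6 CPM at 8 h. Under the NC label it climbed from 5.47 and 5.96 CPM at 0 h to 13.4 and 12.2 CPM at 4 h and was at 5.65 and 4.90 CPM at 8 h. The highest mean was 3.27 times and 2.43 times the lowest. PIK3CA also had its highest mean at 6 h under KO and at 4 h under NC (1.25 and 1.28 times the lowest), but its F test did not pass with DESeq2 under the NC label (adjusted p = 0.261), nor without KO 6 h replicate 1 (0.197), without KO 8 h replicate 2 (0.0657) or without NC 4 h replicate 2 (0.157). Of all genes tested 22.6% had their highest mean at exactly that pair of times.

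ROCK2 had its highest mean at 4 h under NC, at 275 ± 5.66 CPM (SD, n = 2). Under KO the libraries at 4 h (98.5 ± 0.754 CPM, SD, n = 2) and at 6 h (94.0 and 100.3 CPM) overlapped, and the highest mean was at 4 h on this scale but at 6 h in plain CPM (112 against 105 CPM) and on the ribosomal scale. Its highest mean was 1.58 times the lowest under KO and 1.72 times under NC. TLN1, VCL and ILK went the other way on this scale, with the lowest mean at 6 h under KO and at 4 h under NC, as had 26.5% of all genes tested. TLN1 was at 519 and 522 CPM at 6 h under KO, against 746 and 741 CPM at 0 h, and at 173 and 165 CPM at 4 h under NC, against 256 and 254 CPM. VCL fell from 868 and 879 to 643 and 649 CPM, and ILK from 272 and 273 to 192 and 202 CPM, between 0 h and 6 h under KO.

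These directions depended on what the counts were scaled to. Divided by the counts of ribosomal protein genes, PTK2, PXN, VCL and ILK had their highest mean at 6 h under KO and at 4 h under NC, and TLN1 at 4 h under both, with a highest mean of 1.17 times the lowest under KO and 1.10 times under NC. In plain CPM, a setting added after the data had been seen, the highest mean of PTK2 was at 6 h under KO (153 CPM, against 147 CPM at 0 h) and TLN1 and ILK kept their lowest means at 6 h under KO and at 4 h under NC. BCAR1, SRC and PIK3CA peaked at 6 h under KO and at 4 h under NC on all 3 scales, with a highest mean for BCAR1 of 9.05 times the lowest in plain CPM and 13.1 times on the ribosomal scale under KO. For PTK2, PXN, TLN1, VCL and ILK the times of the highest and the lowest mean were not the same on all 3, nor was the time of the highest mean of ROCK2 under KO.

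**Figure D3:**
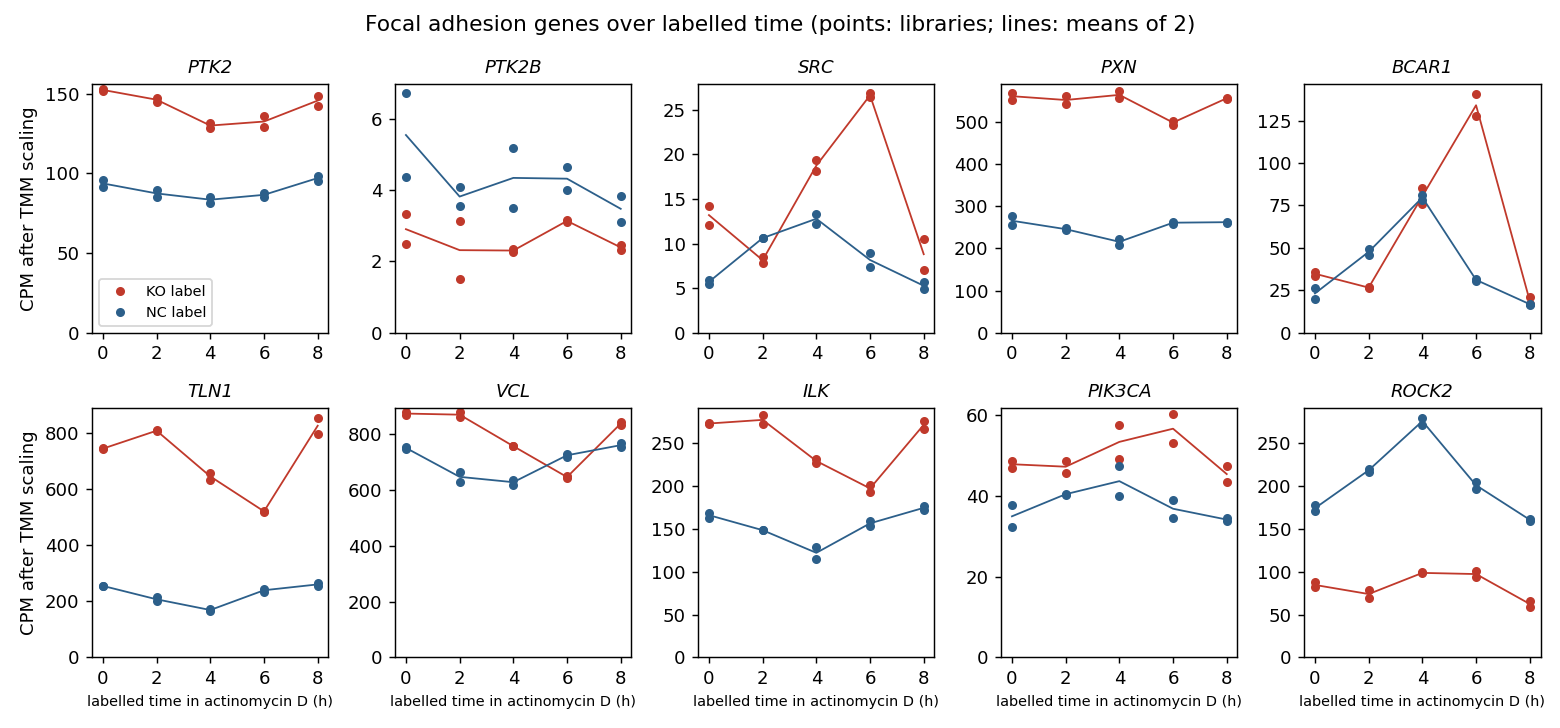
Level of each gene in CPM after TMM scaling against the labelled time in actinomycin D, with points for libraries and lines for the means of 2. BCAR1 and SRC peak at 6 h under the KO label and at 4 h under the NC label, and the KO and NC points of PTK2, PXN, TLN1, ILK and ROCK2 do not meet.

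The deposited tables also hold a molecule value for each gene on a log2 scale, which within each library was a straight line of the deposited log2 RPKM. On this scale the median gene fell over the series, by 1.79 under the KO label and by 1.18 under the NC label between 0 h and 8 h. It did not fall steadily: the median change from 0 h was -0.72, -0.47 and -0.56 at 2, 4 and 6 h under KO, and 0.14, 0.34 and -0.50 under NC. PTK2 stayed near the median gene, at -0.82, -0.66, -0.66 and -1.93 from 2 to 8 h under KO and at 0.03, 0.15, -0.64 and -1.12 under NC. BCAR1 went from -1.14 at 2 h to 0.92 at 4 h, 1.69 at 6 h and -2.69 at 8 h under KO. Under NC it was at 1.26, 2.26, -0.01 and -1.57. BCAR1 thus stood above its 0 h value at 2 of the 4 later times under each label on this scale. In CPM under the NC label it was above its 0 h value at 6 h too, by 0.43 on the log2 scale. At 8 h all 10 members were below their 0 h value under both labels.

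**Figure D4:**
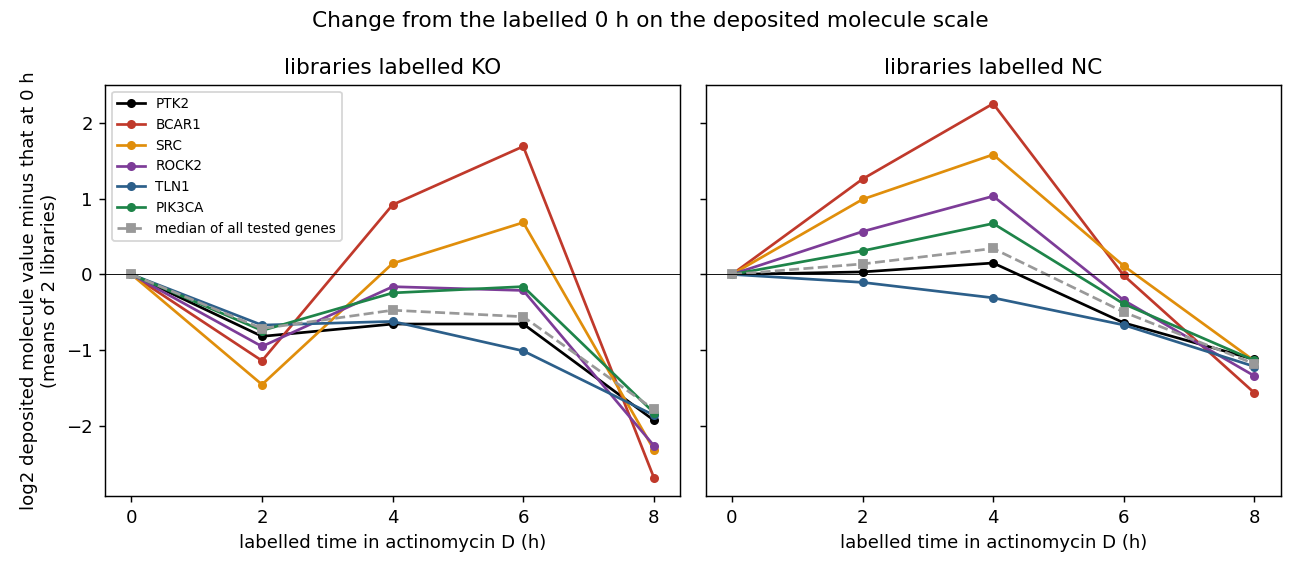
Change of 6 of the genes from their labelled 0 h value on the deposited log2 molecule scale, as means of 2 libraries, with the median of all tested genes dashed. BCAR1 rises to 1.69 at 6 h under the KO label and to 2.26 at 4 h under the NC label, while PTK2 stays close to the dashed line.

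The slope over labelled time, which bears on the question of transcript lifetime, was called for none of the members. With edgeR 0 of 17715 genes (0%) passed under the KO label, under the NC label or for the difference of the slopes, where 635, 403 and 529 genes had an unadjusted p under 0.05, and DESeq2 called 10, 2 and 6 genes, none of them members. Relative to the library, PTK2 changed by -0.01 log2 units per labelled hour under KO (SE 0.01) and by 0.00 under NC (SE 0.01), a difference of -0.02 (SE 0.02, edgeR adjusted p = 1). The difference was 0.23 for BCAR1 (SE 0.18), 0.09 for SRC (SE 0.11), 0.02 for PIK3CA (SE 0.03) and between -0.03 and 0.06 for the other 6 members. The standard errors of BCAR1 and SRC were the largest, since their levels did not follow a line. For every gene this fit counts any course other than a line as spread. Between labelled times 55.9% of genes differed under KO and 54.7% under NC, so 0 called slopes do not show that lifetimes were the same. On the molecule scale limma called 7 members as falling under KO and 5 under NC, PTK2 at -0.18 and -0.15 per hour among them. Of all 17715 genes it called 8400 as falling under KO and 7443 under NC, but the difference of the slopes for 0. With the 8 h libraries left out, edgeR called rising slopes under KO for BCAR1 (0.38 per hour), SRC (0.22) and PIK3CA (0.07). Of all 17616 genes tested 2774 were called there, 2267 of them rising.

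The lists around the members looked different at the labelled 0 h from the steady state. Of all genes tested at 0 h 35.5% were called as higher and 31.6% as lower under the KO label, with a median log2 change of 0.06. Of 12 integrin genes 10 were higher and 1 was lower under the KO label, with a median log2 change of 2.93: ITGA2 was at 966 ± 8.30 against 35.7 ± 2.60 CPM (SD, n = 2 each), ITGA3 at 2000 and 2036 against 196 and 197 CPM and ITGB3 at 34.7 ± 2.39 against 2.20 ± 0.00653 CPM. ITGA1, a collagen receptor subunit, was lower, at 6.31 ± 0.348 against 109.8 ± 6.16 CPM. Among the 30 adaptors and kinases 16 were higher and 9 lower (median 0.32). ARHGAP26, a GTPase activator that binds FAK, was higher (4.00, SE 0.11), as were SHC1 (2.36, SE 0.05) and ASAP1 (1.13, SE 0.05), while FYN (-6.11, SE 0.24), VAV2 (-1.79, SE 0.08) and TGFB1I1 (-1.48, SE 0.18) were lower. The 2 libraries labelled KO held 8 and 34 counts of FYN at that time. Of the 23 actin-linking genes 10 were higher and 11 lower (median -0.31), with ACTN4 (4072 ± 80.2 against 1440 ± 25.7 CPM) and KANK2 (1.18, SE 0.07) higher and TRIP6 (-6.76, SE 0.11), FERMT1 (-5.98, SE 0.19) and FBLIM1 (-2.59, SE 0.19) lower.

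In the ILK-PINCH-parvin list 4 of 5 were lower at 0 h and 0 were higher (median -1.32), LIMS2 by -3.35 (SE 0.17), PARVA by -1.33 (SE 0.07) and LIMS1 by -1.32 (SE 0.05), while ILK itself was higher. LIMS1 was lower under the KO label in both sets in CPM, but its steady-state groups overlapped in TPM. Of the 14 PI3K, AKT and ERK genes 8 were higher and 3 lower (median 0.37), with AKT2 (3.85, SE 0.04), PIK3CD (3.28, SE 0.19) and PIK3CB (1.42, SE 0.07) higher and PIK3R2 (-1.89, SE 0.08) lower. Of the 19 ROCK and myosin genes 10 were higher and 8 lower (median 0.13), with PAK1 (3.62, SE 0.11), MYL12A (1.34, SE 0.04) and CDC42 (0.98, SE 0.04) higher and RHOB (-3.59, SE 0.17), MYL9 (-2.61, SE 0.10) and MYLK (-2.61, SE 0.06) lower. PIK3CB and ROCK1 (0.74, SE 0.06) were higher under the KO label here and lower in the steady state, as PIK3CA was. YES1 (0.28, SE 0.06) and TLN2 (0.60, SE 0.15) were also higher, and LPXN did not pass (0.04, SE 0.42). NEDD9 had 1 and 0 counts in the libraries labelled KO at 0 h and 80 and 77 counts in those labelled NC.

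Over the 10 group means of the actinomycin D set, among the genes whose log2 levels ran most like those of PTK2, out of 7733 genes with a mean of at least 20 CPM, were VPS8 (Pearson r = 0.996), KIF2C (0.994), NPAS2 (0.994) and GCFC2 (0.993). Of the members TLN1 (0.986), PXN (0.980) and ILK (0.957) ran like PTK2 and ROCK2 ran opposite (-0.973), while BCAR1 did not follow it (-0.000884). The 10 points are 5 of each label and share the gap between the labels, so these values describe that gap more than any course over time.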

How the data were processed

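Of the steady-state set, the deposited tables of 6 libraries gave expected counts and TPM per gene, in the column layout of RSEM, per the file headers. For the 20 actinomycin D libraries the deposited tables gave whole counts, RPKM and a log2 molecule value per gene, which in every library was an exact straight line of log2 RPKM. The submitters' processing notes name Bowtie2, STAR, RSEM, deepTools and hg19, with no versions or roles, and 5 crosslinking samples were not analysed here. Per the labels' protocols, RNA was extracted with TRIzol and polyA libraries were prepared. The strand setting used in counting was not found in these sources.

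Steady-state identifiers (58037, of which 56948 had a symbol) were matched to symbols, 45 pseudoautosomal copies were added to their partners, and expected counts, 10.2% of them not whole, were rounded. After filterByExpr and TMM scaling, each set was tested over all genes by the quasi-likelihood F test of edgeR 4.0.16 (R 4.3.3), with a Benjamini-Hochberg threshold of 0.05, and the scripts were tested on simulated data. Standard errors were taken from the F statistic, as the absolute log2 change over its square root. Alternatives used DESeq2 1.42.0, limma 3.58.1 on log2(TPM + 1) and on the log2 molecule value, no filter, a replicate block, length-adjusted offsets, scaling to ribosomal protein genes, labelled times left out and each library left out. Plain CPM without TMM scaling was chosen after seeing the data.

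The members, the 106 listed pathway genes and the marker lists were chosen with earlier results of these data known. Named in the text are the members, their direct paralogs and, per list, up to 3 called genes per direction with the largest change and a mean of at least 10 CPM. Likeness to PTK2 used log2(CPM + 0.5). Some genes that this rule names are not reported here, though the lists' counts include them.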

Additional observations from a re-analysis of the deposited data

Results flagged for a closer look

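PIK3CA stood out among the members because its libraries moved in opposite directions in the 2 sets. Its log2 change between the KO and NC labels was -1.56 in the steady state, with each of the 3 KO libraries below each of the 3 NC libraries. At the labelled 0 h of the actinomycin D set it was 0.45, with each of the 2 libraries labelled KO above each of the 2 labelled NC. The sets were made and scaled separately, and the difference between them was not tested. This pattern was not particular to PIK3CA: PIK3CB, ROCK1 and ASAP1 also fell in the steady state and were higher under the KO label at 0 h. The share of all genes with opposite directions was not counted. In the actinomycin D set genes that mark the cell line also differed along the label.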

How the results depend on the processing

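Of 1595 values of the members and KHSRP under the alternatives, 1544 were kept, 17 gained a call, 25 lost it and 9 reversed. Kept values stayed on their side of the threshold. A reversal of direction was counted only where the main fit or the alternative called the value. Values called by neither may thus have changed sign and still count as kept. With 1 library left out, 975 of 990 were kept, 2 gained a call and 13 lost it. VCL reversed in the steady state with length-adjusted offsets, to 0.38. On the molecule scale, on which the median gene fell, slopes per labelled hour reversed to -0.15 for PIK3CA and -0.17 for KHSRP under the KO label. Under the NC label they reversed to -0.15 for PTK2, -0.17 for PXN, -0.15 for TLN1, -0.17 for VCL, -0.17 for ILK and -0.17 for KHSRP.

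The count of genes with a called slope, 0 with edgeR, became 10 under the KO label, 2 under the NC label and 6 for the difference with DESeq2. It became 8437 and 7471 under the 2 labels on the molecule scale, 1 under the KO label and 1 for the difference without the 4 h libraries, and 2774 under the KO label without the 8 h libraries. For these changes the cause was not tested. Leaving out 1 library gave 0 to 1 genes under the KO label, 0 to 2 under the NC label and 0 to 2 for the difference. The same gave 6723 to 10150 genes and 5 to 8 members in the steady state, 10779 to 10865 genes at 0 h and 14795 to 14900 for the mean over the times. The share of called genes that were higher went from 48.1% to 77.2% on log2(TPM + 1) in the steady state. For the mean over the times, with 7366 called genes higher and 7361 lower, it became 65.6% on the ribosomal scale and 65.8% on the molecule scale.

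Same-numbered libraries did not deviate together (r of -0.15 to 0.11 over 3 steady-state pairs and of -0.04 to 0.05 over 90 actinomycin D pairs), so numbers were not taken as pairs. With 2 libraries per actinomycin D group, replicate 2 deviates as the mirror image of replicate 1. Each r thus appears under both replicate numbers, and the 90 are not separate values. With the replicate number as a block, 8706 genes were called in the steady state, 11827 at 0 h and 14683 for the mean, and SRC lost its steady-state call (adjusted p = 0.0643, edgeR). SRC also lost it without KO replicate 2 (0.103) or 3 (0.116) and without NC replicate 1 (0.0860), 2 (0.0550) or 3 (0.190). PTK2B had only 35 to 150 counts in the actinomycin D libraries, which limits its precision.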
